A study of Mus musculus with 186 samples.

Results

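The genes described here are 5 small surface and cytoplasmic protein genes, Ly6a, Ly6c1, Ly6d, Ly6e and Plac8, of 14774 genes that passed a filter on low counts. They were selected on earlier results of these data, in which some of them stood high in luminal cells, so their levels in luminal and basal cells are given as a description with no test. The filter asked for 3 or more cells with a level of 1 CPM (counts scaled to the library total, per 1e6). All 5 members passed it, Plac8 through its luminal cells alone. The data are RNA profiles of single cells from the mammary glands of adult mice of strain FVB/NJ, which received no treatment. Cells were sorted as basal (96 cells) or luminal (90 cells), captured 1 per site on the Fluidigm C1 microfluidic chip and sequenced as full-length cDNA. The design text gives 8 mice, but no label ties a cell to a mouse, so each population counts as 1 sample and no replicate check exists for any difference below. The labels name 3 PCR plates. Plate A held basal cells, plate C luminal cells and plate B both. The thresholds on reads and genes left 72 basal cells (50 of plate A, 22 of plate B) and 76 luminal cells (24 of plate B, 52 of plate C). These held a median of 1189518 and 1459936 reads per cell, ranging from 69934 to 1969045 in basal and from 105649 to 3227473 in luminal cells.

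Ly6 proteins are small, cysteine-rich proteins that are tethered to the outer face of the cell membrane by a lipid (GPI) anchor, and many of their genes lie side by side in a cluster. Ly6a encodes Sca-1, which is used as a sorting marker of blood stem cells and is also carried by endothelial and connective tissue cells. Ly6c1 encodes a form of the antigen Ly6C known from monocytes and endothelium, Ly6d is known as a marker of early B cells and of stratified epithelia, and Ly6e takes part in virus entry and is induced by interferon. Plac8 is unrelated in sequence and encodes a small cysteine-rich protein of the cell interior, first described in placenta. The luminal layer of the mammary gland contains hormone-sensing mature luminal (ML) cells, which carry oestrogen and progesterone receptors, and luminal progenitor (LP) cells.

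By RefSeq's gene positions on GRCm38.p6, which is also called mm10, the Ly6 members lie within 1 stretch of chromosome 15. Ly6d (Entrez 17068, minus strand) spans chr15:74762056-74763567, Ly6e (Entrez 17069, plus strand) chr15:74955025-74959904, Ly6a (Entrez 110454, minus strand) chr15:74994877-74998031 and Ly6c1 (Entrez 17067, minus strand) chr15:75044018-75048920. Plac8 (Entrez 231507, minus strand) is at chr5:100551589-100572253. Ly6a overlaps Gm28068, a gene not among the symbols of the count files. Ly6a and Ly6c1 are next to each other among protein-coding genes, and Ly6c2 is next after Ly6c1. The similarity among these 3 genes bears on what a count can mean, so the second of 3 coding exons is shown for each, from the GENCODE M21 transcripts. Capitals mark the bases at which Ly6a or Ly6c2 differs from Ly6c1 at the same place.
Ly6c1: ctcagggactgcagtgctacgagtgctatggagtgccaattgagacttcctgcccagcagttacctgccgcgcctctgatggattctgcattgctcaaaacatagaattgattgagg
Ly6c2: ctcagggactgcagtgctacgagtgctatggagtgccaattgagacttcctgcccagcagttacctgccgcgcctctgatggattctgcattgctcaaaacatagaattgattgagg
Ly6a: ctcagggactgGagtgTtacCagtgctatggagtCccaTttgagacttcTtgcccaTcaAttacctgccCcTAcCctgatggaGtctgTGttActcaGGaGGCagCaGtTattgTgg
These exons are at chr15:75047353-75047469 (Ly6c1), chr15:75110511-75110627 (Ly6c2) and chr15:74996452-74996568 (Ly6a), all on the minus strand and 117 bases long. The Ly6c2 exon has no capital, since it is identical to that of Ly6c1, while Ly6a differs at 25 bases. Over the whole coding sequence Ly6c1 was 97.7% identical to Ly6c2 and 82.6% identical to Ly6a. Of the 745 windows of 100 bases in the Ly6c1 transcript, 114 (15.3%) were found unchanged in Ly6c2, and at 50 bases 36.7% were found in Ly6a or Ly6c2. For Ly6a no window of 100 bases and 8.05% of those of 50 bases were shared with another gene. How the counting treated reads that fit several genes is not given in the sources used here, so counts of Ly6c1 and Ly6c2 are uncertain against each other. Ly6c2 was low, at 1.58 CPM in the basal and 6.27 CPM in the luminal population, and in the well with most Ly6c1 (12415 reads) it had 263.

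The other 3 members had no near copy. The same exon is shown for them, to be set against the run of shared letters above.
Ly6d: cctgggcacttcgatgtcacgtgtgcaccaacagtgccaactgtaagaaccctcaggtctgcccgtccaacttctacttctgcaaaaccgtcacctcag
Ly6e: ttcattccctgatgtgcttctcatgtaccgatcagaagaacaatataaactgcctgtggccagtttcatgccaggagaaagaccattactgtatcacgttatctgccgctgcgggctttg
Plac8: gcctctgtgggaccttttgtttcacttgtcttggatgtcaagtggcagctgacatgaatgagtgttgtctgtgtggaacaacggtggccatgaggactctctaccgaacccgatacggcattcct
They are at chr15:74762751-74762849 (minus strand), chr15:74958269-74958388 (plus strand) and chr5:100559752-100559876 (minus strand). No window of 50 bases of Ly6d, Ly6e or Plac8 was found in the transcript of another gene. Coding identity was 56.3% between Ly6d and Ly6e, 54.6% between Ly6d and Ly6c1 and 51.9% between Ly6e and Ly6c1. Plac8, which is of another family, gave 49.9% to 52.7% against the Ly6 members in the same kind of alignment, and among the Ly6 members only Ly6c1 with Ly6e fell in that range.

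The labels were checked against markers of their own lineage before the members were read. Such a check cannot show wells that carry markers of both lineages. Of 5 luminal markers (Krt8, Krt18, Krt19, Epcam and Cldn7), 66 of 76 luminal cells had all 5 at a fixed depth of 50000 reads per cell, and 1 had 2. Of 5 basal markers (Krt14, Krt5, Acta2, Myh11 and Trp63), 60 of 72 basal cells had 4 or 5 and 2 had none.

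Some wells also carried transcripts known from other cell types. In each population some wells, 6 labelled basal and 4 labelled luminal, had 4 or more of 20 endothelial markers, although the sort removed cells with CD31, the product of the endothelial gene Pecam1. Of 20 fibroblast markers at least 10 were detected in 1 basal and 6 luminal wells, 1 of which was also among the endothelial ones. Together these were 7 basal and 9 luminal wells, called marker wells below, a rule set after the values had been seen. All 5 luminal markers were detected in 8 of the 9 luminal marker wells, and the 7 basal ones had from 0 to 5 basal markers. Luminal cell 54 had 2 of them, with no read of Krt8 or Epcam, beside 352 reads of the collagen gene Col3a1 and 16 of 20 fibroblast markers. The summed endothelial list ranged from 0 to 22954 CPM in basal wells (median 1.57) and from 0 to 11253 CPM in luminal wells (median 3.98), with reads for every gene of the list in each population. The summed fibroblast list ranged from 0 to 35514 CPM (median 808) and from 0 to 43058 CPM (median 35.4). No well had more than 2 of 20 immune markers.

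Plac8 was the most clearly luminal of the members. It had 1 read in all 72 basal cells (0.0119 CPM of the summed counts, exact 95% Poisson interval 0.000301 to 0.0663) and 30964 reads in the 76 luminal cells (272 CPM, interval 269 to 275). Across luminal cells the level ran from 0 over a median of 156 CPM to 1735 CPM, and the 8 highest cells held 40.4% of the summed CPM. At 50000 reads it was detected in 51 of 76 luminal cells (67.1%, exact 95% binomial interval 55.4 to 77.5) and in none of the basal cells (0 of 72), where a count of 0 allows up to 4.17%. In 59 of 76 luminal cells the level was above that of the highest basal cell, 0.859 CPM. The fold of luminal over basal was 22845 with a counting interval from 4100 to 902344, since it rests on the single basal read. The log2 ratio with 1 CPM added to each was 8.07, the third highest of 14774 genes, and it was 7.95 on plate B alone.

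Ly6d followed closely. Basal cells held 219 reads (2.60 CPM, interval 2.27 to 2.97), of which 218 came from 4 cells with 49 to 59 reads each. Some of the 4 also carried luminal transcripts. Basal cell 90 held 41.7% of the basal Krt18 and 53.6% of the basal Cited1 reads, and basal cell 13 held 57.8% of those of Prlr. Basal cell 42 was the top basal cell of no such marker. Basal cell 20 held 96.2% of the basal Wfdc18 reads and had no Ly6d read. The part of such transcripts in the basal Ly6d level was not tested. Luminal cells held 71151 reads (624.5 CPM, interval 620 to 629), with a median of 222 CPM per cell and a maximum of 4007. It was detected in 50 of 76 luminal cells (65.8%, interval 54.0 to 76.3) and in 3 of 72 basal cells (4.17%, interval 0.868 to 11.7), and in those 3 with at most 3 of 50000 reads. The levels overlapped little, with 48 of 76 luminal cells above the highest basal cell at 52.6 CPM. The luminal level was 240-fold that of basal cells (counting interval 209.9 to 275), with a log2 ratio of 7.44 and, on plate B, of 8.01.

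Ly6e was the highest and the most even member, and it was in nearly every cell of both populations. Its median was 3786 CPM in luminal cells (range 3.32 to 11222) and 1608 CPM in basal cells (range 0.774 to 6574). It was detected in 75 of 76 luminal cells (98.7%, interval 92.9 to 99.97) and in 68 of 72 basal cells (94.4%, interval 86.4 to 98.5). The populations overlapped widely, since only 7 luminal cells lay above the highest basal cell, yet the luminal cell was the higher in 80.9% of all luminal and basal pairs. Summed levels were 4188 CPM (interval 4176 to 4200) and 1819 CPM (interval 1810 to 1828), a log2 ratio of 1.20. The basal level itself differed between plates, at 2172 CPM on plate A and 1111 CPM on plate B. The ratio was 1.84 within plate B and 0.98 between basal plate A and luminal plate C. With edgeR's TMM factors, which lower every ratio by 0.22 before the 1 CPM is added, it was 0.98, and with median-of-ratios factors 0.94, both below the log2 ratio of 1 that is called a difference here.

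**Figure D1:**
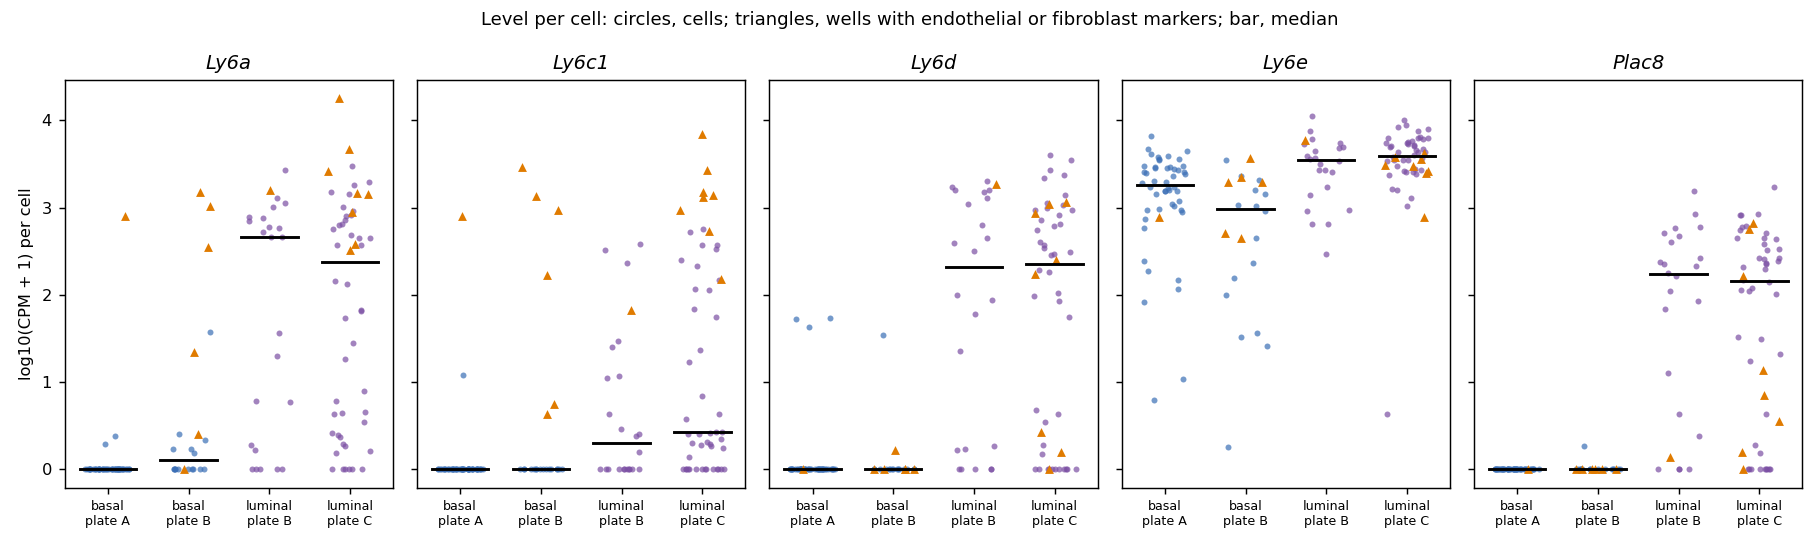
Level of each member in every cell that passed, as log10(CPM + 1), by population and PCR plate. Circles are cells, triangles are the 7 basal and 9 luminal wells with endothelial or fibroblast markers, and bars are medians. Plac8 is at or near 0 in all basal cells and Ly6d in all but 4, Ly6e is high in both populations, and the basal levels of Ly6a and Ly6c1 above 100 CPM are all triangles.

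Ly6a and Ly6c1 differed from the others in where their reads lay. Ly6a had 4660 reads in basal cells (55.4 CPM, interval 53.9 to 57.0) and 95712 in luminal cells (840.1 CPM, interval 835 to 845), a log2 ratio of 3.90. Ly6c1 had 7155 (85.1 CPM, interval 83.2 to 87.1) and 31124 (273 CPM, interval 270.1 to 276), a log2 ratio of 1.67. On plate B alone the ratio of Ly6a was 2.31, and that of Ly6c1 turned to -2.02, with a basal level of 213 CPM and a luminal level of 51.9 CPM.

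The basal reads of both genes came almost wholly from marker wells. The 7 basal marker wells, 6 of them on plate B, held 98.7% of the basal Ly6a reads and 99.8% of the basal Ly6c1 reads. Basal cell 80, with 14 of 20 endothelial markers, held 34.7% and 44.4% of them, and basal cell 95, with 12, held 33.0% and 28.3%. Basal cell 56 of plate A had 18 of 20 fibroblast markers and 1 endothelial marker, and it held 25.4% and 16.3%. In the other 65 basal cells, at 50000 reads, Ly6a was detected in 1 (1.54%, interval 0.0389 to 8.28) and Ly6c1 in 0, where up to 4.62% is allowed. Their summed levels there were 0.800 CPM for Ly6a and 0.223 CPM for Ly6c1.

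Luminal reads of the pair were also uneven, but many cells outside the marker wells had them. Luminal cell 54, the well with few luminal markers, alone held 33.3% of the Ly6a and 39.9% of the Ly6c1 reads. The 9 luminal marker wells held 54.9% of the Ly6a reads and 78.1% of the Ly6c1 reads, and both genes were detected in all 9, with 18 to 878 of 50000 reads for Ly6a and 2 to 361 for Ly6c1. In the other 67 luminal cells Ly6a was detected in 40 (59.7%, interval 47.0 to 71.5) with up to 137 reads, and Ly6c1 in 22 (32.8%, interval 21.9 to 45.4) with up to 29. The summed levels in these 67 cells were 436 and 68.9 CPM. With all marker wells left out the log2 ratios rose to 7.92 for Ly6a and 5.84 for Ly6c1, beside 7.33 for Ly6d and 8.16 for Plac8. The 3 other members were not concentrated in this way, with 7.64% (Plac8), 10.5% (Ly6e) and 13.9% (Ly6d) of luminal reads in the 9 wells. What the endothelial and fibroblast transcripts contribute in these wells was not tested.

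Over all cells, Ly6a was detected in 49 of 76 luminal cells (64.5%, interval 52.7 to 75.1) and in 6 of 72 basal cells (8.33%, interval 3.12 to 17.3). Ly6c1 was detected in 31 of 76 (40.8%, interval 29.7 to 52.7) and in 5 of 72 (6.94%, interval 2.29 to 15.5). The luminal shares on plates B and C were close for each member, at 62.5% and 65.4% for Ly6a, 33.3% and 44.2% for Ly6c1, 62.5% and 67.3% for Ly6d and 66.7% and 67.3% for Plac8. Shares of cells with a read rise with depth, and with all reads of each cell 85.5% of luminal cells had Ly6a and 67.1% had Ly6c1.

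**Figure D2:**
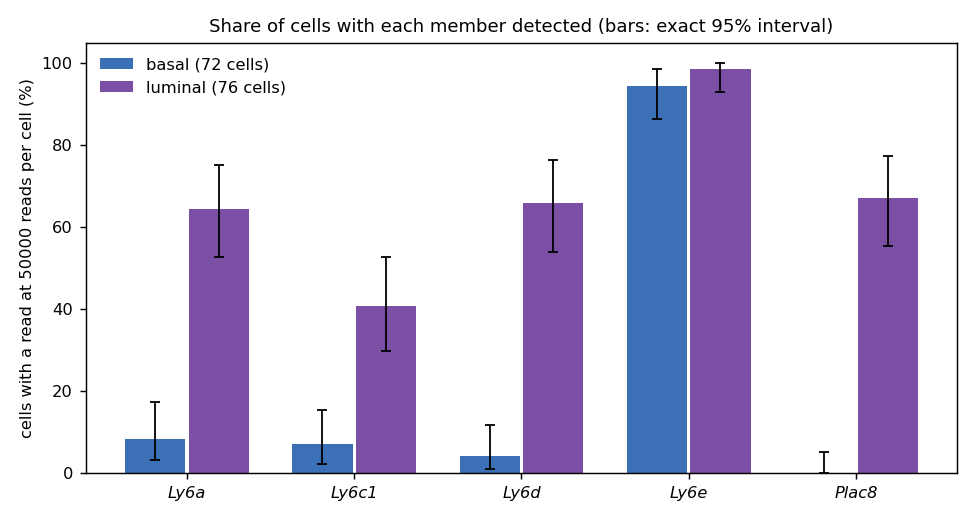
Percentage of cells with at least 1 read of each member when every cell is drawn down to 50000 reads, in 72 basal and 76 luminal cells; error bars are exact 95% binomial intervals and cover counting error only. The intervals of the populations stand apart for Ly6a, Ly6c1, Ly6d and Plac8 and overlap for Ly6e.

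All 5 members had a log2 ratio of at least 1, where 28.4% of the 14774 genes did so and 18.3% had a ratio of -1 or below. The median ratio over the members was 3.90 and over all genes 0.18. This contrast is among the values the members were chosen for, so nothing is read from the count. Compared per gene length as deposited with the counts (RPKM, CPM per kilobase), the order in luminal cells was Ly6e (1820), Ly6a (1015), Ly6d (904), Plac8 (390.5) and Ly6c1 (166). The place of Ly6a above Ly6d rested on 1 marker well. Without luminal cell 54 they stood at 687 and 918 RPKM over all luminal cells and at 657 and 858 RPKM on plate C, and plate B, which does not hold that cell, gave 749.5 and 1042 RPKM. The other places held in each of these. In basal cells Ly6e stood at 790.5 RPKM and the other members at 67.0 (Ly6a), 51.7 (Ly6c1), 3.77 (Ly6d) and 0.0171 (Plac8). The deposited length of Ly6c1, 1647 bases, is longer than its transcript above, which has 745 windows of 100 bases. Its RPKM would be higher per length of that transcript. The order of Ly6a and Ly6c1 in basal cells rests on the length, since by CPM Ly6c1 was higher (85.1 against 55.4).

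The next comparison asked whether the members mark the same luminal cells. Ly6e is left out of the counts because it was in all luminal cells but 1. Of the 76 cells 15 had all of Ly6a, Ly6c1, Ly6d and Plac8, where the product of the single shares gives 8.82, and 11 had none, where the product gives 1.80. A further 15 cells had Ly6a, Ly6d and Plac8 without Ly6c1, and 8 had Ly6d and Plac8 alone. Cells with exactly 1 of the 4 were fewer than the product gives, at 6 against 11.6. The 4 genes were thus found together, or missing together, more often than their shares alone would place them. The 11 cells with none had a median of 2229 genes detected at 50000 reads and the other 65 a median of 3521, and the part of that difference in the pattern was not tested. Their median total of 1192411 reads was not far below that of the others (1528786), and their median Ly6e level was 127 of 50000 reads against 240 in the cells with all 4.

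Each of the 6 pairs was found in more cells than the product of its shares, and this count has the same limit. Ly6d and Plac8 were together in 40 cells (product 33.6), Ly6a and Ly6d in 38 (32.2), Ly6a and Plac8 in 38 (32.9), Ly6a and Ly6c1 in 26 (20.0), and Ly6c1 with Ly6d or Plac8 in 23 each (20.4 and 20.8). Plac8 was in 80.0% of the 50 cells with Ly6d and in 42.3% of the 26 without it. Of the cells with Ly6a 53.1% also had Ly6c1, against 18.5% of those without. On plate C the excess was present for all 6 pairs, and on plate B for 4, where Ly6d and Plac8 were together in 10 cells (product 10.0) and Ly6c1 and Plac8 in 5 (5.33).

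The amounts were compared next. Spearman's rho over the 76 cells, which share plates and differ in the number of genes detected, was highest for Ly6a and Ly6c1 at 0.56. That value ranked above 99.9% of the rho of either gene with 5723 other genes detected in at least 20% of luminal cells. Plate C alone gave 0.65 and plate B 0.32, and it was 0.42 in the 67 cells outside the marker wells, where 17 cells had both (product 13.1). Ly6a and Ly6e followed at 0.44 (0.63 on plate B, 0.36 on plate C) and Ly6a and Ly6d at 0.35 (0.42 and 0.31). For Ly6d and Plac8, the pair most often found together, rho was only 0.10, above 66.2% of the genes compared with Ly6d, with -0.18 for plate B and 0.27 for plate C. The remaining pairs lay between 0.10 and 0.27, and at these sparse counts no order is read from them.

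**Figure D3:**
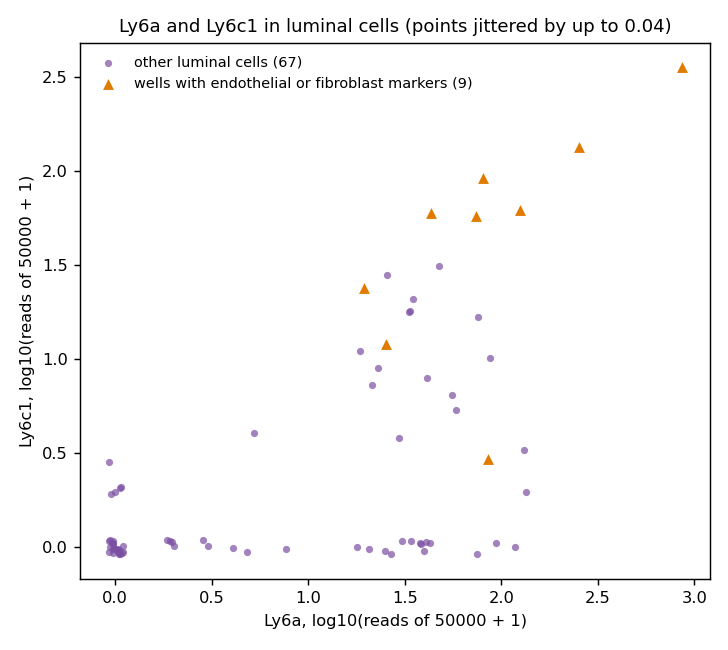
Reads of Ly6a (x axis) and Ly6c1 (y axis) of 50000 in each luminal cell, as log10(reads + 1), with points slightly jittered. Triangles are the 9 wells with endothelial or fibroblast markers and circles the 67 others; the highest Ly6c1 levels are triangles, and among circles Ly6c1 is found mostly in cells that also have Ly6a.

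The members were then placed along the ML and LP genes. Each cell was given an ML share, the number of detected ML markers out of all detected ML and LP markers (10 of each were sought), which ran from 0% to 100% with a median of 58.3%. Cells at 25% or below are called the LP range (9 cells), those at 75% or above the ML range (25 cells), with 6 of all cells within 5 points of a limit. These are ranges of a score and not cell types. The marker lists are not independent of Plac8 and Ly6d. The study also clustered total epithelial cells of pubertal and adult glands. There both genes were listed in the same cluster as Foxa1, Stc2, Cxcl15, Ptn, Prlr, Areg, Cited1 and Upk3a. A separate cluster listed Cd14, Muc15, Kit, Ehf, Csn3, Wfdc18 and Trf. A lean of Plac8 and Ly6d to the ML genes could thus be foreseen and is given below as a description.

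Ly6d and Plac8 were nearly missing from the LP range, of which 8 of 9 cells were on plate C. Ly6d was detected in 0 of 9 such cells (up to 33.3% is allowed by a count of 0), in 33 of the 42 cells between (78.6%, interval 63.2 to 89.7) and in 17 of 25 of the ML range (68.0%, interval 46.5 to 85.1). The lowest ML share of a cell with Ly6d at 50000 reads was 42.9%, so cells below it lack such a read by definition. With all reads none of the 11 cells below it, 2 of them on plate B, went above 1.65 CPM of Ly6d. Plac8 was detected in 1 of 9 LP-range cells (11.1%, interval 0.281 to 48.3), with 1 read, in 32 of 42 between (76.2%, interval 60.6 to 88.0) and in 18 of 25 of the ML range (72.0%, interval 50.6 to 87.9). Ly6a was in 2 of 9 (22.2%, interval 2.81 to 60.0), 32 of 42 and 15 of 25, and Ly6c1 in 2 of 9, 17 of 42 and 12 of 25. The LP-range cells with Ly6a or Ly6c1 were luminal cells 39 and 61, both marker wells, and the Plac8 read was also in cell 39. Outside the marker wells Ly6a, Ly6c1, Ly6d and Plac8 were each detected in 0 of 7 LP-range cells, where up to 42.9% is allowed, while in the ML range they were in 13, 10, 15 and 17 of 23. Ly6e was present throughout, in all 9, all 42 and 24 of 25 cells, with a median of 121, 204 and 178 of 50000 reads. Of the 11 cells with none of the 4 genes, 7 were in the LP range, 3 between and 1 in the ML range. The last was luminal cell 63, which carried basal markers. It held 78.1% of the luminal Acta2 reads, 65.3% of those of Myh11 and 92.8% of those of Trp63. The LP-range cells had fewer genes detected (median 2254) than those between (3843) and those of the ML range (3032), and the part of this in the shares was not tested. All 5 luminal markers were detected in the median LP-range cell.

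**Figure D4:**
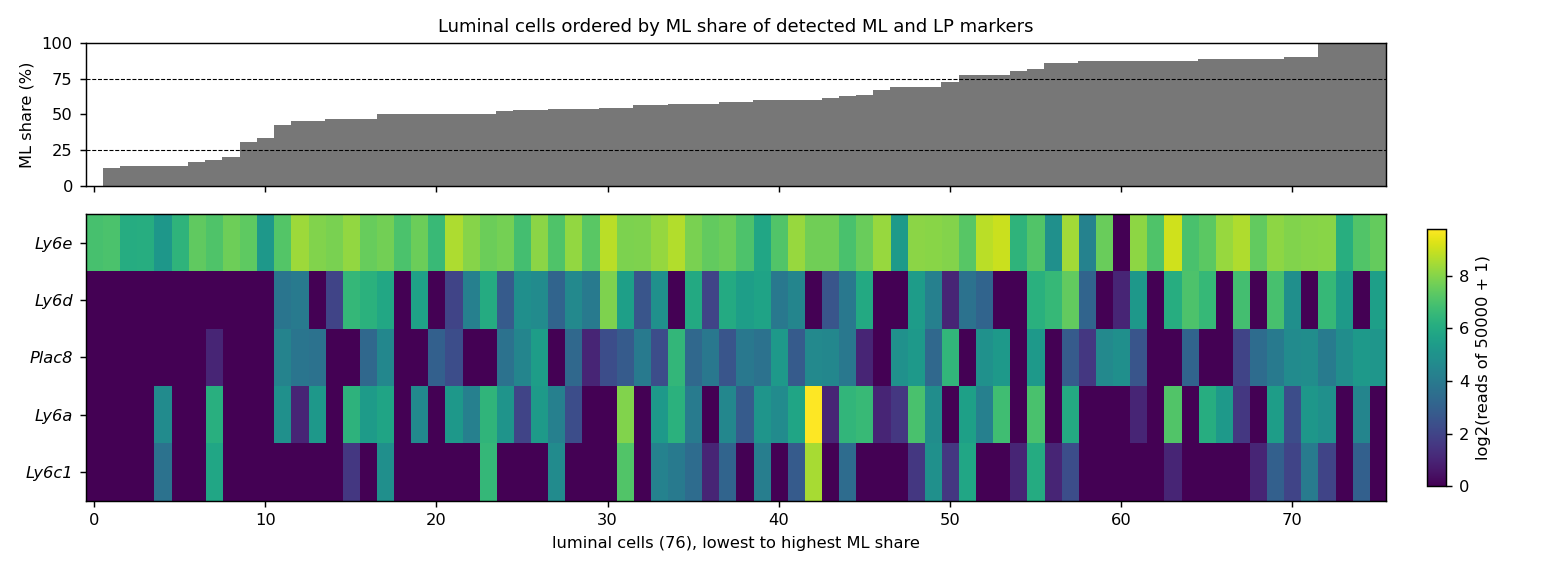
The 76 luminal cells in order of ML share (upper panel, percent; dashed lines at 25% and 75%), with the reads of each member of 50000 as log2(reads + 1) below. The lowest ML share of a cell with Ly6d is 42.9%, a limit taken from Ly6d itself. In the 11 cells below it Plac8 has 1 read in 1 cell, and Ly6e is present across the whole order.

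Marker by marker, all 10 ML genes had a positive rho with Plac8 (median 0.35, range 0.22 to 0.52) and all 8 LP genes detected in at least 20% of cells had a negative one (median -0.21, range -0.35 to -0.01), where the median over 5723 genes was 0.10 and 77.6% of them were positive. The highest were Ptn, a secreted growth factor, at 0.52, the prolactin receptor gene Prlr at 0.44 and the oestrogen receptor gene Esr1 at 0.42, and the lowest was the iron carrier gene Trf at -0.35. Esr1 was detected in 72.5% of cells with Plac8 and in 28.0% of those without. The negative values came from plate C. On plate B alone the median rho of Plac8 with the LP genes was 0.02, and its rho with the ML share was 0.05 there against 0.61 for plate C. The ML genes were positive on both plates, with 0.40 and 0.44 (B and C) for Esr1, 0.25 and 0.64 for Ptn and 0.11 and 0.60 for Prlr.

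Ly6d was positive with all 10 ML genes (median 0.28) and negative with 7 of 8 LP genes (median -0.11), where the median over all genes was 0.06 and 68.1% of them were positive. On plate B the ML genes Cxcl15 (-0.20) and Upk3a (-0.03) were negative with it. Its leading ML partners were the secreted hormone gene Stc2 at 0.56, Ptn at 0.50 and the growth factor gene Areg at 0.40. Stc2 was detected in 64.0% of cells with Ly6d and in 15.4% of those without, and its rho was alike on both plates, at 0.54 (B) and 0.58 (C). Areg was in 98.0% and 46.2% of them.

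Ly6e, Ly6a and Ly6c1 were less clearly placed, with a median rho to the ML genes of 0.22, 0.15 and 0.05 and to the LP genes of -0.02, -0.08 and -0.13. Over all genes the medians were 0.06, 0.09 and 0.05, so that of Ly6c1 with the ML genes was the same as over all genes. For Ly6c1 the highest ML gene was the chemokine gene Cxcl15 at 0.38. The LP surface marker Cd55 was positive with Ly6a at 0.29.

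**Figure D5:**
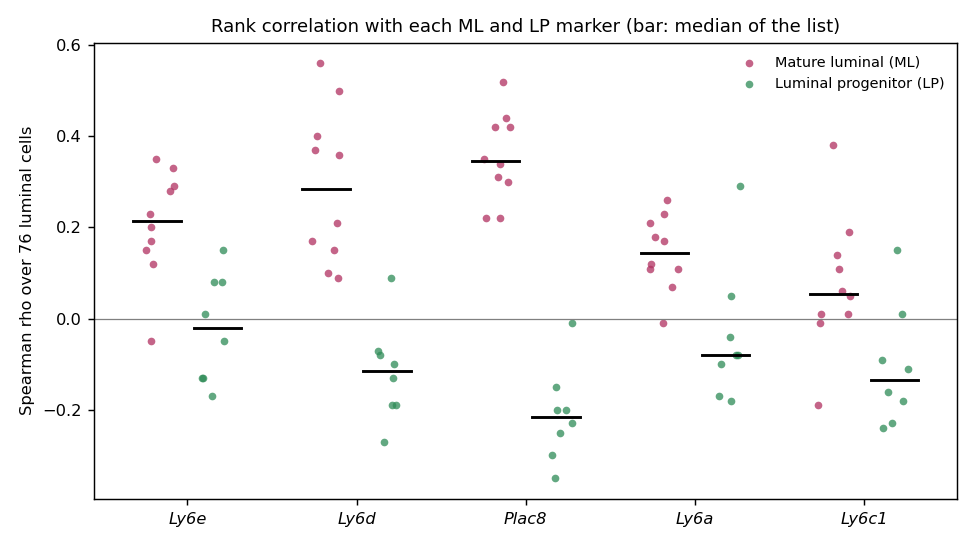
Spearman's rho over 76 luminal cells between each member and each of 10 ML markers and of 8 LP markers; bars are the medians of a list. The medians are furthest apart for Plac8 (0.35 and -0.21) and Ly6d (0.28 and -0.11).

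The genes whose pattern over the 76 luminal cells was most like that of a member were named by rank, with nothing said of a shared function. For Plac8 they were the tetraspanin gene Cd9 (rho 0.55), Ptn (0.52), Wfdc2 (0.51), Gdpd1 (0.50) and Slc25a17 (0.50). For Ly6d they were Fam25c (0.63), Stc2 (0.56), Cd164 (0.54), S100a6 (0.50) and Ptn (0.50). Fam25c reached 0.81 on plate B (0.52 on C), and it was itself luminal, at 41.3 CPM against 0.0833 CPM in basal cells. Ptn was the only gene on both lists.

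For Ly6a the list opened with Ly6c1 (0.56), then Ttyh2 (0.54), Dld (0.51), Man1a (0.51) and Nedd8 (0.47), and for Ly6c1 it read Dpysl2 (0.65), Ly6a (0.56), Ttyh2 (0.55), Psmb10 (0.49) and Fcgrt (0.49). With Ly6c1, plates B and C gave 0.48 and 0.70 for Dpysl2 and 0.05 and 0.65 for Ttyh2. They gave 0.64 and 0.44 for Psmb10 and 0.23 and 0.57 for Fcgrt. With Ly6a they gave 0.44 and 0.60 for Ttyh2, 0.49 and 0.51 for Dld, 0.37 and 0.56 for Man1a and 0.11 and 0.58 for Nedd8. Both lists include the marker wells and were not drawn up without them. Dpysl2 and Ttyh2 were higher in basal than in luminal cells, at 1586 against 154 CPM and at 317 against 39.4 CPM, and they were detected in 19 and 17 luminal cells. For Ly6e the nearest were Capsl (0.54), Ndufa1 (0.46), Stk4 (0.45), Gadd45g (0.44) and Atp5j2 (0.44).

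Relatives of the members were mostly silent in these cells. Of 39 other Ly6 family genes 38 were in the files and 15 passed the filter, of which 3 had a log2 ratio of at least 1, 3 of -1 or below and 9 lay between, with a median of 0.13. Both Plac8 relatives, Plac8l1 and Cnfn, fell below the filter. Of the family 6 genes reached 10 CPM in either population. Ly6g6e, a further member of the family, had 1 basal read and 33.8 CPM in luminal cells, where it was detected in 11 of 76. Lypd3, known as C4.4A, was at 55.8 CPM in luminal and 21.0 CPM in basal cells, a log2 ratio of 1.37 that was 6.02 on plate B and 0.70 between basal plate A and luminal plate C. Cd59a, an inhibitor of complement, went the other way, at 47.4 CPM in luminal and 187 CPM in basal cells, a ratio of -1.96. Plaur, the urokinase receptor gene, was at 109 and 199 CPM, Ly6k at 13.5 and 12.0 CPM and the endothelial lipase anchor Gpihbp1 at 28.6 and 15.4 CPM. Their directions were not stable, since the ratio of Plaur (-0.86) was 0.48 on plate B, that of Ly6k (0.15) was -0.06 with TMM factors, and that of Gpihbp1 (0.85) was -5.57 on plate B and -0.02 without the marker wells.

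Next to the members on the chromosome, levels were low. Ly6i and Ly6m, which flank Ly6e, and Ly6i before Ly6a were under 0.3 CPM in both populations, Lynx1 beside Ly6d was at 1.58 CPM (basal) and 1.12 CPM (luminal), and Ly6g6g on its other side at 2.23 and 0.00878 CPM. Beside Plac8, Cops4 was at 356 CPM (basal) and 261 CPM (luminal) and Coq2 at 3.47 and 15.8 CPM. None of these neighbours had a luminal level near that of Ly6d, and Cops4 alone was near that of Plac8.

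Ly6e and Ly6a are known to respond to interferon, so 20 interferon-stimulated genes were set beside them. Of 19 that passed the filter 5 had a log2 ratio of at least 1, 2 of -1 or below and 12 lay between, with a median of 0.04 against 0.18 over all genes. Ifitm3, a membrane protein gene that limits virus entry, was higher in basal cells (1593 against 555 CPM, ratio -1.52). As luminal and basal levels, Usp18 (71.9 and 13.8 CPM), Xaf1 (38.2 and 10.6 CPM) and Ifit1 (10.2 and 0.0952 CPM) had ratios of 2.30, 1.76 and 3.35. Of these, 99.6% of the luminal Ifit1 reads and 54.6% of those of Xaf1 were in 1 cell, and the ratio of Xaf1 was -0.23 on plate B. Between -1 and 1 lay Stat2 (95.2 and 50.0 CPM), Irf7 (22.8 and 20.0), Irf9 (40.3 and 69.9), Ifi27 (152 and 162), Rtp4 (61.7 and 60.0), Cxcl10 (14.0 and 15.7) and Gbp2 (33.5 and 31.7), each as luminal and basal CPM. Most of these left that range in some setting. On plate B the ratio was 5.21 for Stat2, 5.51 for Gbp2, 2.22 for Ifi27, -4.63 for Cxcl10 and -1.20 for Irf7, and without the marker wells it was 1.48 for Cxcl10, 2.00 for Gbp2 and -1.49 for Irf7. Over luminal cells, the 7 interferon genes detected in at least 20% of cells had a median rho of 0.19 with Ly6a, 0.18 with Ly6c1, 0.12 with Ly6d, 0.07 with Plac8 and 0.05 with Ly6e, where the medians over all genes were 0.09, 0.05, 0.06, 0.10 and 0.06. The last 2 were thus not above those of all genes. The highest was Ifi27 with Ly6a at 0.39, and Ifi27 was at 0.29 with Ly6e.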

How the data were processed

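Single cells of adult FVB/NJ mammary gland were grouped as basal or luminal by the submitters' labels. The authors mapped read pairs to mm10 with Subread, assigned them to genes with featureCounts and the built-in RefSeq annotation of Rsubread, and deposited raw counts per gene and cell; tool versions, strand and the treatment of reads that fit several genes are not given in the sources used here. A count is called a read above. A combined table was left aside. Of 27179 gene identifiers 25275 matched a symbol in the RefSeq table of GRCm38.p6, the rest held 1.94% of counts and were left out, and 15 mitochondrial and 121 ribosomal protein genes were removed.

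The thresholds of the study were applied: 50000 reads and 1000 genes for basal and 100000 reads and 1500 genes for luminal cells. No cells had identical counts, and no doublet caller was run, because the study viewed each capture site by microscope. Whether any of the marker wells held more than 1 cell was not tested. Counts were summed per population, scaled to CPM, and the log2 ratio taken with 1 CPM added. For shares and correlations every cell was drawn down at random, without replacement, to 50000 reads. Intervals are exact Poisson (levels), conditional binomial (folds) and Clopper-Pearson (shares) at 95%; beside a share of 0 stands the limit that 3 counts set. Libraries carry no molecular identifiers, so several reads may be copies of the same molecule. The intervals on levels and folds treat reads as independent and leave out the spread between cells, so they are too narrow. Without luminal cell 54, for example, the summed luminal level was 568.9 CPM for Ly6a and 167 CPM for Ly6c1. None of the intervals covers the spread between mice. Coding identity came from a global alignment (match 1, mismatch -1, gap -2). The ratio of summed counts was run on simulated data for all 14774 genes, and all 200 changed ones came within 0.2 on the log2 scale. Those data were Poisson counts with no further spread between cells. The run thus checks the arithmetic only and not how far a single cell can sway a ratio in the real data. Python 3.11.15, scipy 1.17.1 and edgeR 4.0.16 (TMM factors only) were used.

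No test was made, since each population is 1 sample. The members, gene lists and rules were chosen with earlier results of these data known. Named genes were the members, family and interferon genes with at least 10 CPM in either population, cell type markers, the 5 genes with the highest rho for each member, and neighbouring genes; 1 gene that met this rule is not reported here. Alternatives covered the CPM added, plates, scaling, filters, depth, detection limit, random draw, measure of correlation and wells with markers of other cell types.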

Additional observations from a re-analysis of the deposited data

Results flagged for a closer look

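Reads of the members were also counted in the cells below the thresholds, 24 basal and 14 luminal, which hold 265880 and 412665 reads in all and enter no comparison above. Levels there that rest on more than 3 reads are listed. In these basal cells Ly6a stood at 985.4 CPM, of which 254 of 262 reads lay in basal cell 78, Ly6d at 22.6 CPM (6 reads) and Ly6e at 959.1 CPM (255 reads, in all 24 cells). In the luminal cells Ly6a stood at 26.7 CPM (11 reads), Ly6c1 at 9.69 CPM (4 reads), Ly6d at 21.8 CPM (9 reads) and Ly6e at 702.7 CPM (290 reads, in all 14 cells). Plac8 had 2 reads in each set of cells, under the limit of 3.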

How the results depend on the processing

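The direction of the ratio held for Plac8, Ly6d, Ly6a and Ly6e under 13 alternatives and under 1 added after seeing the data, in which the wells with at least 4 endothelial or 10 fibroblast markers were left out. That of Ly6c1 held except on plate B, where it was -2.02. In the order Plac8, Ly6d, Ly6a, Ly6c1 and Ly6e, the log2 ratios were 4.81, 5.65, 3.70, 1.57 and 1.20 with 10 CPM added, 7.95, 8.01, 2.31, -2.02 and 1.84 on plate B, 8.13, 7.17, 5.41, 4.10 and 0.98 between basal plate A and luminal plate C, 7.96, 7.25, 3.68, 1.45 and 0.98 with TMM factors, and 7.94, 7.22, 3.64, 1.41 and 0.94 with median-of-ratios factors, which shift every ratio by -0.22 and -0.26 before the CPM is added. Without the wells with 4 markers of any other cell type (22 basal and 9 luminal) they were 8.15, 7.80, 7.78, 6.13 and 1.31. Without the added rule's wells they were 8.16, 7.33, 7.92, 5.84 and 1.23, and without the top cell of the gene in each population 7.96, 7.62, 3.92, 1.78 and 1.23. With 0.1 CPM added Plac8 was at 11.25 and Ly6d at 7.85, with mitochondrial and ribosomal protein genes kept Plac8 was at 7.85 and Ly6e at 1.16, with no cell filter Ly6a was at 3.82, and with the mean of CPM per cell Ly6c1 was at 1.58. Without thinning the luminal shares rose to 85.5% (Ly6a), 67.1% (Ly6c1), 77.6% (Ly6d), 100% (Ly6e) and 81.6% (Plac8). Ly6e was also at 100% at 100000 reads and on plate B, and a limit of 5 reads gave 52.6% for Ly6a and 26.3% for Ly6c1. On plate B the excess of cells with Ly6c1 and Plac8 turned to -0.333 cells, rho to -0.02 for Ly6c1 and Plac8 and to -0.18 for Ly6d and Plac8, and the median rho with the LP markers to 0.03 for Ly6a, 0.10 for Ly6e and 0.02 for Plac8. The ratio of Ifit1 turned to -0.02 on plate B, -0.12 and -0.09 without the wells of the first and the added rule, and -0.05 without its top cell, and that of Xaf1 to -0.23 on plate B. The causes were not tested. The RPKM without luminal cell 54 and the ML-share ranges without marker wells were also added once values had been seen. No paired analysis was possible because replicate numbers here merely count cells and no result comes from a test.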
